A study of Arabidopsis thaliana with 3 samples.

Results

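The genes described here are LHCB4.1 (AT5G01530), PSAN (AT5G64040) and RCA (AT2G39730), nuclear genes of Arabidopsis thaliana whose proteins work in the chloroplast. They were chosen by locus, through probe sets annotated to exactly 1 gene. All 3 were found, with 1 probe set each, among 13286 genes that had such a probe set. A gene is called measured below if it had such a probe set. Other genes may still be on the array, under probe sets annotated to several genes or to none. RNA came from shoots of plants aged 10 days that were kept in constant light at 22 °C, and it was hybridised to 3 arrays. The Col wild type had 2 arrays, numbered as replicates 1 and 2, and the flp-1/myb88 double mutant had 1, so the mutant had no replicate. The mutant carries lesions in FLP and MYB88, MYB factors that restrain the final division in the lineage of stomatal guard cells, and the labels name flp-1 as the FLP allele without naming the allele of MYB88. The comparison asked which transcripts differ in that mutant. The labels do not say how many plants an array stands for or whether separate plants were used for each Col array, so p-values measure only the difference between these hybridisations, which may be technical.

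Photosynthesis in land plants is built from 2 genomes, with the reaction centre subunits of both photosystems and the large subunit of Rubisco encoded in the plastid, and the antenna proteins and many small subunits encoded in the nucleus. LHCB4.1 encodes CP29, a minor antenna protein that joins the outer light-harvesting trimers to the photosystem II core. PSAN is a subunit of photosystem I on the lumen side of the thylakoid membrane, where plastocyanin delivers electrons. RCA, Rubisco activase, uses ATP to free Rubisco of tightly bound sugar phosphates, and Rubisco is the enzyme that fixes carbon dioxide.

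All 3 transcripts were among the brightest signals on every array, and each was somewhat brighter in the mutant than on both Col arrays. The differences were 0.47 log2 for LHCB4.1, 0.44 for PSAN and 0.39 for RCA, and none passed the test, nor an unadjusted p under 0.05 (0 of 3 in limma). Over the same arrays the plastid-encoded photosystem genes and rbcL were dimmer in the mutant, at a median difference of -0.96 log2. Signal is the authors' RMA intensity, on which log2 was taken, and differences are the mutant minus the mean of the 2 Col arrays. They were tested with limma across all 22746 probe sets, p-values were adjusted by Benjamini-Hochberg, and 0.05 was the threshold.

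The mutant array differed from Col at many probe sets, with 26.3% of all tested past the threshold, 11.9% higher and 14.4% lower. Median intensity was 68.7 on Col replicate 1, 69.7 on Col replicate 2 and 64.2 in the mutant. The deposited arrays thus did not share a common distribution, as arrays after quantile normalization do. Over all probe sets the deposited values had a median difference of 0.10 log2. Centring each array on its median made it 0.21 and changed the share of lower calls from 54.9% to 44.8%. Control probe sets come in pairs for the 3′ and 5′ ends of actin, GAPDH and ubiquitin transcripts, with a first and second pair each. In 6 of 6 of these pairs, which repeat the same transcripts, the excess of the 3′ signal was largest in the mutant. Its median log2 value was 2.37 on Col replicate 1, 2.31 on Col replicate 2 and 2.92 in the mutant. The part of this measure in the results on these genes was not tested. FLP and MYB88 were not analysed here, since 0 probe sets of exactly 1 gene matched them, so the mutant label was not checked against them. The 4 measured of 9 guard cell marker genes had summed intensities of 2065 (Col replicate 1), 1959 (Col replicate 2) and 979 (mutant), with 3 of 4 lower in limma. The call of AT4G14480 (BLUS1) was lost after quantile normalization and that of CHX20 after median centring, and both with log2(value + 16), at limma adjusted p of 0.0521 and 0.0514. The dimmest of the 4, FMA (FAMA), stood at 5.96 and 5.98 log2 in Col and 5.80 in the mutant. The part of guard cells in the levels of the photosynthesis genes was not tested. The 3 measured of 12 root marker genes summed to 3267 and 3141 in Col and 2727 in the mutant. Nearly all of that was PYK10, a beta-glucosidase abundant in roots and seedling axes, at 11.66 and 11.61 log2 in Col and 11.40 in the mutant. The root hair expansins EXPA7 and EXPA18 were dim, between 3.28 and 4.54 log2. In such bulk shoot RNA, fewer cells of a type and less RNA per cell cannot be told apart.

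For the antenna gene LHCB4.1, log2 intensity was 10.47 on Col replicate 1, 10.05 on Col replicate 2 and 10.73 on the mutant array. On the linear scale these were intensities of 1419.6, 1063 and 1698. The mutant lay above both Col arrays, but its distance from Col replicate 1, at 0.26 log2, was smaller than the 0.42 by which Col replicate 2 lay below Col replicate 1. The difference from the Col mean was 0.47 ± 0.31 log2 (SE), or 1.38-fold, with an adjusted p of 0.291 in limma. Its 95% interval ran from -0.21 to 1.14 log2, or from 0.864-fold to 2.21-fold of Col. Such intervals rest on the spread of the Col arrays, moderated over all probe sets, and hold no spread between mutant plants.

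PSAN, the photosystem I subunit, had the brightest probe set of the 3, at 11.53 log2 on Col replicate 1, 11.14 on Col replicate 2 and 11.78 in the mutant. As intensities these were 2967, 2262 and 3524. Here too the groups did not overlap, and the step from Col replicate 1 to the mutant, at 0.25 log2, was smaller than the step of 0.39 between the Col arrays. The difference from the Col mean was 0.44 ± 0.31 log2 (SE), or 1.36-fold, with an adjusted p of 0.313 in limma and a 95% interval from -0.23 to 1.12.

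RCA was measured at 10.66 and 10.47 log2 in Col and at 10.95 in the mutant, as intensities 1615, 1419 and 1977. Its Col arrays were closer together than those of LHCB4.1 and PSAN, 0.19 log2 apart, and the mutant lay 0.29 log2 above the nearer of them. The difference from the Col mean was 0.39 ± 0.30 log2 (SE), or 1.31-fold, with an adjusted p of 0.369 in limma and a 95% interval from -0.26 to 1.03. RCA is spliced into a longer and a shorter form, and its 1 probe set gives a single value for the gene.

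**Figure D1:**
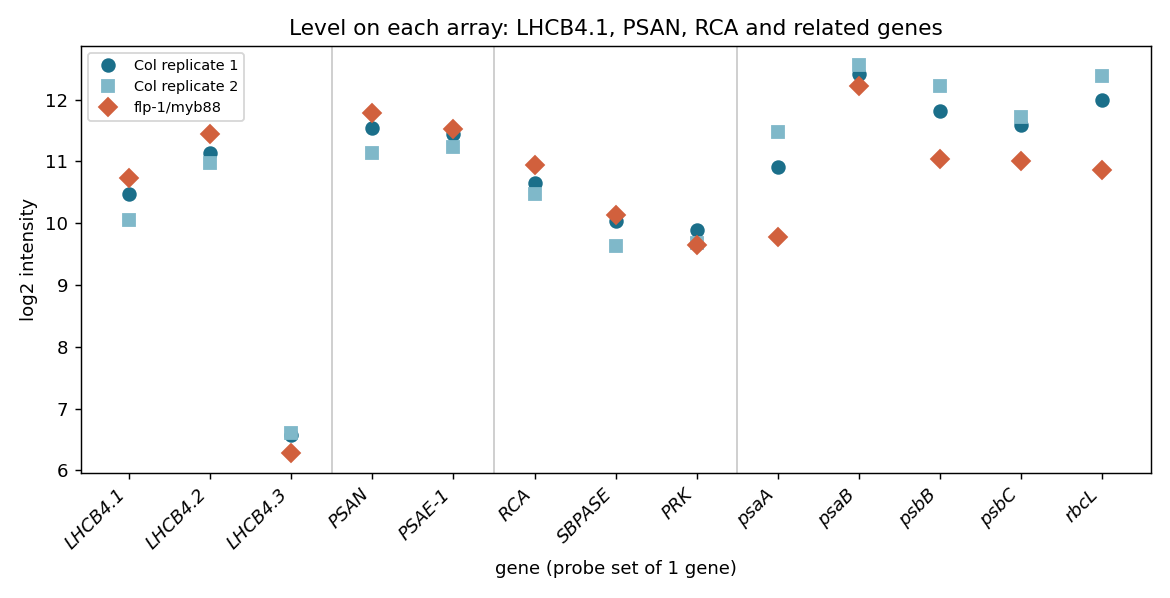
Log2 intensity (vertical axis) of each gene (horizontal axis) on the 3 arrays, 1 point per array, with no error bars because each point is 1 array. LHCB4.1, PSAN and RCA lie above both Col points in the mutant, while psaA, psaB, psbB, psbC and rbcL lie below both, and heights should be compared within a gene, since probe sets differ in how strongly they bind.

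Being above both Col arrays was common on these arrays. It held for 3 of 3 of these genes, against 49.2% of all probe sets and 61.0% of the brightest 10% by mean log2 value. Across all probe sets, the difference of LHCB4.1 stood at percentile 70.1, that of PSAN at 68.8 and that of RCA at 65.9. Among probe sets within 1 log2 unit of the same mean brightness, 31.3% of 865 had a larger difference than LHCB4.1, 17.3% of 295 than PSAN and 34.7% of 665 than RCA. Relative to the median of all probe sets, the differences were 0.36, 0.34 and 0.28 log2. The probe sets of like brightness had median differences of 0.26 around LHCB4.1, 0.08 around PSAN and 0.23 around RCA. None of the 3 therefore stood out by size from the other bright probe sets. The smallest difference called anywhere in the fit was 0.854 log2, above each of these 3 differences.

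By rank on each array, the percentile of LHCB4.1 among all probe sets was 98.6 and 97.9 in Col, against 98.8 in the mutant. PSAN stood at 99.6 and 99.4 in Col and 99.9 in the mutant. RCA stood at 98.8 and 98.7 in Col and 99.1 in the mutant. The order of brightness, PSAN above RCA above LHCB4.1, was the same on all 3 arrays. Because probe sets differ in affinity and the values are not scaled by length, this order is one of probe signal and not of transcript number.

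LHCB4.1 belongs to a small family, of which LHCB4.2 encodes a close relative of the same antenna protein and LHCB4.3 a more distant one. LHCB4.2 was measured at 11.14 and 10.98 log2 in Col and 11.44 in the mutant, a difference of 0.38 log2 (limma adjusted p = 0.379). LHCB4.3 was much dimmer, at 6.57 and 6.60 in Col and 6.27 in the mutant. It lay on the other side of Col by -0.31 log2 (limma adjusted p = 0.468). The 2 bright family members lay above both Col arrays, as did 49.2% of all probe sets and 61% of the brightest 10%. The dim one lay below both, as did 37.4% of all probe sets. No member passed the threshold, and the difference between members was not tested. LHCB4.1, LHCB4.2 and LHCB4.3 were the 3 measured of 21 antenna genes listed.

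Of the other photosystem subunits encoded in the nucleus, PSB27 rose in the mutant. PSB27, an assembly factor of photosystem II, went from 9.55 and 9.15 log2 in Col to 10.50, a rise of 1.15 ± 0.31 log2 (SE; limma adjusted p = 0.0181). After quantile normalization its limma adjusted p was 0.0617, with a difference of 0.96. The photosystem II subunits PSBY and PSBW differed by 0.46 and 0.28 log2 without passing. Against Col replicate 1 alone these were 0.24 and 0.13, after quantile normalization 0.26 and 0.04, and after cyclic loess 0.28 and 0.09. PSBY had almost the same values across arrays as LHCB4.1 relative to its own mean, at 9.97 and 9.53 in Col and 10.21 in the mutant. Beside PSAN, 1 other of the 12 listed nuclear photosystem I genes was measured. This was PSAE-1, a subunit on the stromal side near the ferredoxin site, at 11.44 and 11.24 in Col and 11.52 in the mutant, a difference of 0.18 log2, which was 0.08 against Col replicate 1 alone.

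ATPC1, the gamma subunit of the chloroplast ATP synthase, rose by 0.90 ± 0.31 log2 (SE; limma adjusted p = 0.0474), from 10.41 and 10.06 to 11.13. This call was lost after quantile normalization (0.85, adjusted p = 0.0783), after cyclic loess (0.76, adjusted p = 0.0784) and with log2(value + 16) (0.89, adjusted p = 0.0638), each in limma. AT2G26500, listed with the electron transport genes and without a symbol in the gene table, differed by -0.10 log2, and by 0.04 after quantile normalization and 0.0075 after median centring. Beside RCA, 2 enzymes of the carbon fixation cycle were measured. SBPASE, the sedoheptulose bisphosphatase that helps to regenerate the acceptor of carbon dioxide, stood at 10.04 and 9.64 in Col and 10.14 in the mutant. PRK, the kinase that makes that acceptor, stood at 9.89 and 9.69 in Col and 9.64 in the mutant. Their differences of 0.30 and -0.15 log2 lay on either side of 0 and neither passed. Both sizes moved with the processing. SBPASE was at 0.10 against Col replicate 1, 0.50 against Col replicate 2, 0.08 after quantile normalization and 0.12 after cyclic loess. PRK was at -0.25 and -0.05 against these Col arrays, -0.39 after quantile normalization, -0.34 after cyclic loess and -0.04 after median centring.

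Taking these nuclear photosynthesis genes as a list, 13 of 77 were measured, 2 of them rose and none fell in limma, also with 0 falls at an unadjusted p under 0.05. That is set against 11.9% higher and 14.4% lower over all probe sets, and 7.74% and 8.79% in the brightest 10%. The median difference was 0.38 log2, and 0.29 for the 10 genes other than LHCB4.1, PSAN and RCA, against 0.10 over all probe sets. Bright probe sets could lie higher than that. Within 1 log2 unit of the mean of LHCB4.1, PSAN and RCA, median differences of other probe sets were 0.26, 0.08 and 0.23. For those 10 genes the median was 0.11 against Col replicate 1 alone, close to the 0.11 of all probe sets, and 0.44 against Col replicate 2 alone. The mutant lay above both Col arrays at 10 of 13 genes, against 49.2% of all probe sets and 61.0% of the brightest 10%. It lay below both at 3 of 13, against 37.4% and 28.3%. LHCB4.1, PSAN and RCA, at 0.47, 0.44 and 0.39, lay above the list median of 0.38, which includes them. The list was spread from -0.31 to 1.15.

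Genes of chlorophyll synthesis, which supplies the pigment bound by LHCB4.1, were higher in the mutant at 2 of 3 measured, of 14 listed, where higher calls made up 11.9% of all probe sets and 7.74% of the brightest 10%. CHLI2, a subunit of the magnesium chelatase, rose by 1.86 ± 0.32 log2 (SE; limma adjusted p = 0.00163), from 6.95 and 6.47 in Col to 8.57. CHLM, the methyltransferase of the next step, rose by 1.13 ± 0.34 log2 (SE; limma adjusted p = 0.0272), from 8.96 and 8.30 to 9.75. The CHLM call was lost after quantile normalization (0.91, adjusted p = 0.0996), cyclic loess (0.89, adjusted p = 0.0593) and with log2(value + 16) (1.095, adjusted p = 0.0735), each in limma. PORB, which reduces protochlorophyllide in the light, differed by 0.81 log2 (limma adjusted p = 0.0710), from 9.86 and 9.46 to 10.47. It passed with an intensity trend in eBayes (limma adjusted p = 0.0201) and with the filter on low values (0.0401). The 10 listed regulators of chloroplast genes, GLK1, GLK2, HY5, GUN1 and the sigma factors, were not analysed here.

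The plastid-encoded partners of the 3 proteins went the other way. Of 21 plastid photosystem genes and rbcL, all of which were measured, 13 fell and none rose in limma, with 0 rises also at an unadjusted p under 0.05. Lower calls made up 14.4% of all probe sets and 8.79% of the brightest 10%. All 21 lay below both Col arrays, against 37.4% of all probe sets and 28.3% of the brightest 10%. After median centring 7 passed, after quantile normalization 9, and with log2(value + 16) 8, while 16 passed after cyclic loess and with the filter on low values and 19 with an intensity trend in eBayes. All 21 differences stayed below 0 under each of these. Differences ran from -1.86 log2 at psbM, named here after its value was seen, to -0.26 at psaB.

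rbcL, which encodes the large subunit of the enzyme that RCA acts on, was measured at 11.99 and 12.38 log2 in Col and 10.86 in the mutant. It fell by 1.33 ± 0.31 log2 (SE; limma adjusted p = 0.00898). The log2 value of RCA minus that of rbcL was -1.33 on Col replicate 1, -1.91 on Col replicate 2 and 0.09 in the mutant. The shift of that gap, 1.71 log2 from the Col mean, was 1.42 from Col replicate 1 and 2.00 from Col replicate 2, with 0.58 between the Col arrays. Most of it came from rbcL, with a difference of -1.33 log2 against 0.39 for RCA.

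In photosystem I, psaA and psaB encode the paired proteins of the reaction centre. psaA fell by 1.41 ± 0.33 log2 (SE; limma adjusted p = 0.00813), from 10.91 and 11.47 in Col to 9.78. psaB was measured at 12.42 and 12.56 in Col and 12.23 in the mutant, a difference of -0.26 log2 (limma adjusted p = 0.552). The gap of PSAN to psaA was 0.62 and -0.33 in Col, against 2.01 in the mutant. The gap of PSAN to psaB was -0.89 and -1.41 in Col, against -0.44 in the mutant. So the size of the shift depended on the plastid gene chosen, at 1.86 log2 with psaA and 0.71 with psaB. The iron-sulphur subunit psaC fell by 0.94 log2 in limma. The small subunit psaI fell by 1.11 and the small subunit psaJ fell by 1.05. The psaC call (adjusted p = 0.0354) was lost in limma after quantile normalization (0.0626) and median centring (0.0582), and the psaJ call (adjusted p = 0.0356) after quantile normalization (0.0538), median centring (0.0632) and with log2(value + 16) (0.0819). The psaI call (adjusted p = 0.0264) was lost in limma with log2(value + 16), at 0.0667.

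In photosystem II, psbB and psbC encode the core antenna proteins. psbB fell by 0.98 ± 0.31 log2 (SE; limma adjusted p = 0.0348), from 11.82 and 12.22 in Col to 11.03. The psbB call was lost in limma after quantile normalization (adjusted p = 0.0602), median centring (0.0590) and with log2(value + 16) (0.0589). psbC was measured at 11.58 and 11.72 in Col and 11.01 in the mutant, a difference of -0.64 (limma adjusted p = 0.127). The gap of LHCB4.1 to psbB was -1.35 and -2.16 in Col, against -0.30 in the mutant. That to psbC was -1.11 and -1.67 in Col, against -0.28 in the mutant. In both cases the mutant gap lay above both Col gaps, by 1.04 and 0.84 log2 over the nearer one. Of the reaction centre genes, psbA fell by 0.95 and psbD fell by 0.98, with calls lost after median centring (limma adjusted p = 0.0567 and 0.0566), and for psbD also with log2(value + 16) (0.0544). psbE, a subunit of cytochrome b559, fell by 1.43 log2 (limma adjusted p = 0.00691). psbH fell by 1.08 log2 in limma. psbF, psbI and psbJ, at differences of -0.87, -0.74 and -0.90 log2, did not pass as deposited, though each passed with an intensity trend in eBayes.

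**Figure D2:**
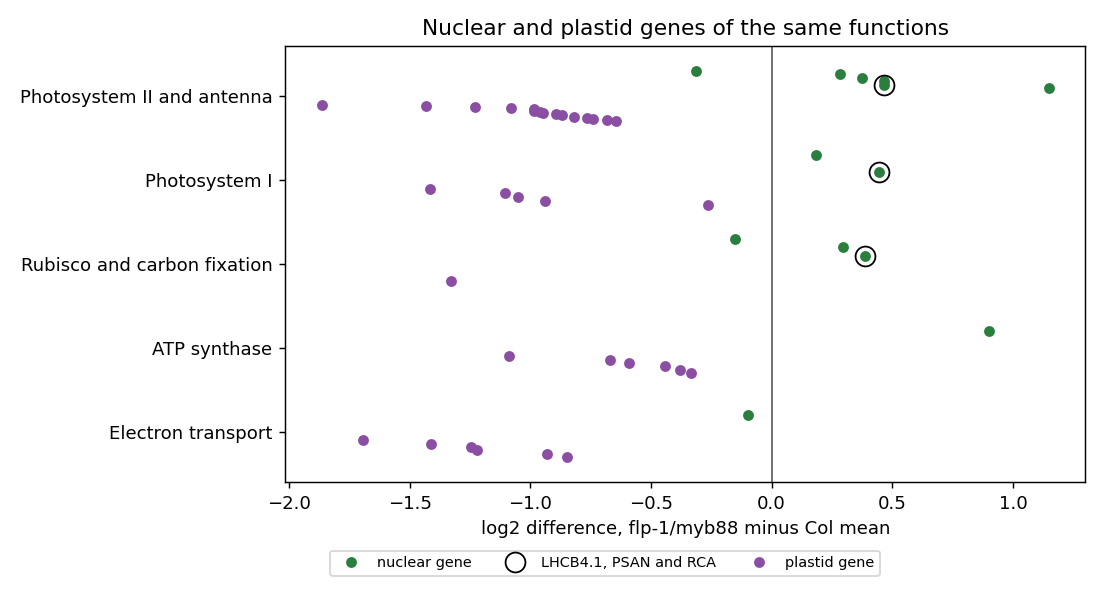
Log2 difference, mutant minus Col mean (horizontal axis), for each measured gene, by function (vertical axis), nuclear genes in green and plastid genes in purple, with no error bars; the vertical spread within a row has no meaning. The ringed genes LHCB4.1, PSAN and RCA lie at 0.47, 0.44 and 0.39, and the plastid genes of the same rows lie below 0.

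The 12 plastid genes of electron transport and the ATP synthase, listed as further context, had 6 falls and 0 rises in limma, with a median of -0.89 log2, where 14.4% of all probe sets and 8.79% of the brightest 10% were lower. The petB call was lost in limma after quantile normalization (adjusted p = 0.0580), median centring (0.0733) and with log2(value + 16) (0.0688), and the petL call with log2(value + 16) (0.0502). For the ATP synthase, whose subunits come from both genomes, ATPC1 stood at 0.90 while the 6 plastid subunits ranged from -1.09 at atpA to -0.34 at atpE. The values of petB, petL, atpA and atpE were named after they were seen. The difference between nuclear and plastid genes was not tested as a group.

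The Col arrays were themselves ordered along the direction of the mutant. Col replicate 2 lay below Col replicate 1 at LHCB4.1, PSAN and RCA and at 12 of 13 nuclear photosynthesis genes, with a median step of -0.30 log2, against 47.8% of all probe sets. It lay above Col replicate 1 at 20 of 21 plastid genes, with a median step of 0.40 log2, against 52.1%. The distance of the mutant therefore depended on the Col array used. Against Col replicate 1 alone the differences were 0.26 for LHCB4.1, 0.25 for PSAN and 0.29 for RCA. Against Col replicate 2 alone they were 0.68, 0.64 and 0.48. With Col replicate 1 alone the differences of LHCB4.1 and PSAN were thus smaller by over 1.5 times than with the Col mean, and so was the nuclear list median below. The nuclear list median was 0.24 against replicate 1 and 0.48 against replicate 2, and the plastid median was -0.79 and -1.16. The plastid genes were thus lower and the nuclear medians higher in the mutant against either Col array.

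**Figure D3:**
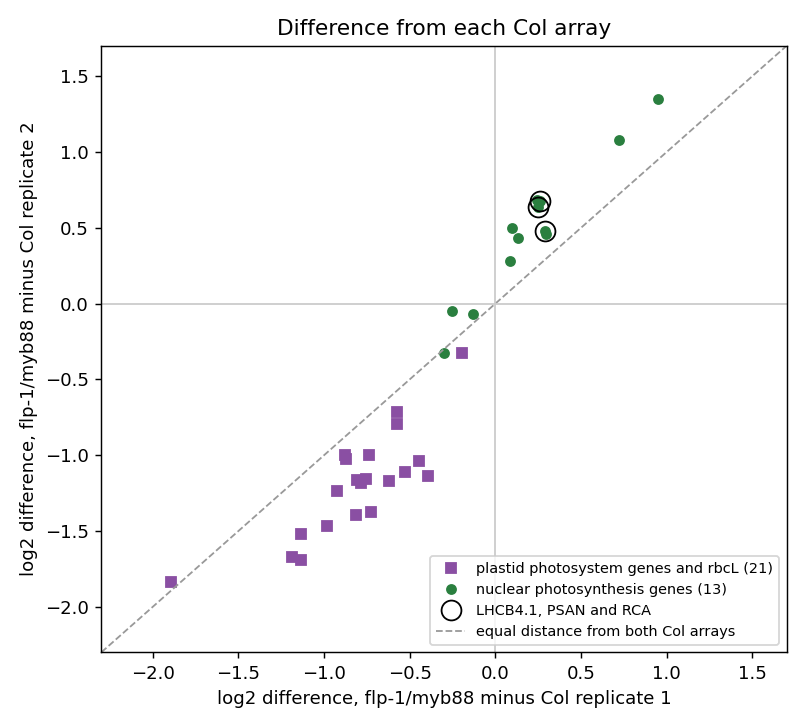
Log2 difference of the mutant from Col replicate 1 (horizontal axis) and from Col replicate 2 (vertical axis), 1 point per gene, with circles for nuclear genes, squares for plastid genes and rings around LHCB4.1, PSAN and RCA. The ringed points lie in the upper right quadrant above the dashed line of equal distance, with larger differences from Col replicate 2, and the squares lie in the lower left quadrant.

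No processing that was tried turned the direction of LHCB4.1, PSAN or RCA or brought any of them past the threshold, as the plot of their differences under each processing shows.

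**Figure D4:**
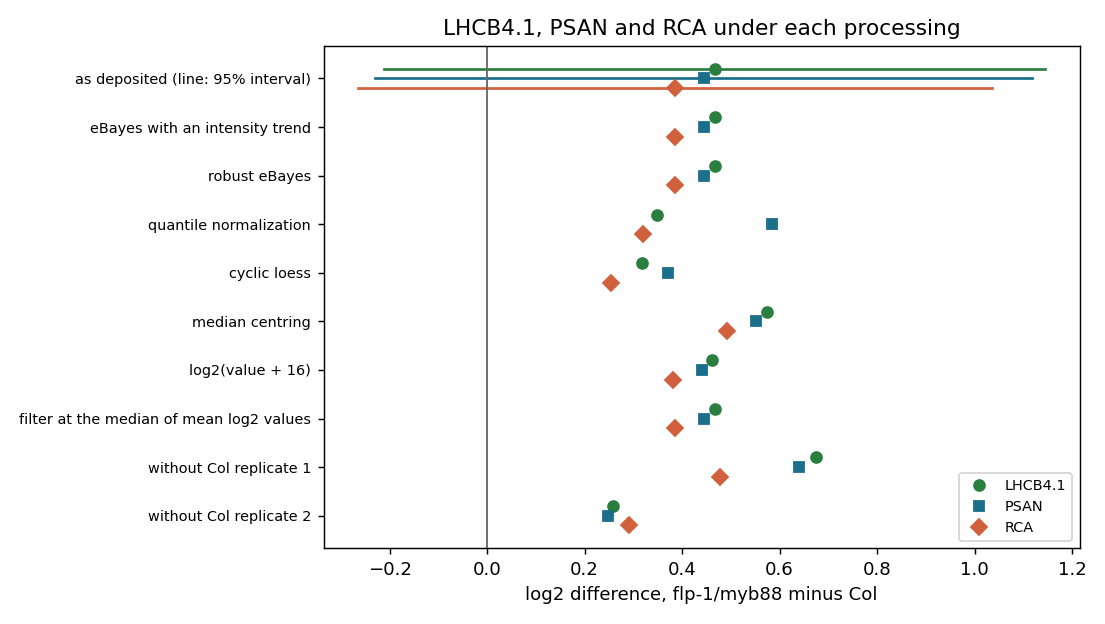
Log2 difference of the mutant from Col (horizontal axis) for LHCB4.1, PSAN and RCA under each processing (vertical axis), with the 95% limma interval as a line for the values as deposited. All points lie above 0, between 0.25 and 0.68, and each of the 3 intervals includes 0.

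The genes whose values moved across the arrays most like each member were sought among probe sets of exactly 1 gene within 1 log2 unit of its mean, by the Euclidean distance of log2 values centred on their own mean. For LHCB4.1 they were AT1G36980, PSBY and AT5G50900, at distances of 0.00635, 0.0187 and 0.0214 among 374 candidates. For PSAN they were BZIP53, AT1G51400 and TPI, at 0.0371, 0.0396 and 0.0714 among 141. For RCA they were LHCB4.2, AT4G22490 and ALDH11A3, at 0.0205, 0.0282 and 0.0328 among 287. With 3 arrays such likeness is weak, and 63, 21 and 71 candidates lay within 0.2 of LHCB4.1, PSAN and RCA. The distance of RCA to PSAN was 0.153 and to LHCB4.1 0.177, which put them at ranks 44 and 59 among the candidates for RCA.

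Along the chromosome, the 3 protein-coding genes on each side of every member were looked up by order in the gene table. For LHCB4.1, 1 of 6 such neighbours was measured. This was TAAC, dim at 4.16 and 3.68 log2 in Col and 4.09 in the mutant. For PSAN, 2 of 6 were measured, AT5G64010 and AT5G64030, with differences of 0.14 and 0.54 log2. For RCA, 4 of 6 were measured. BPM3 went from 7.06 and 7.24 log2 in Col to 8.05, a rise of 0.90 (limma adjusted p = 0.0427). That call was lost after quantile normalization (adjusted p = 0.0992), cyclic loess (0.102) and with log2(value + 16) (0.0553), each in limma. The other measured genes there, AT2G39710, AT2G39725 and AT2G39750, differed by 0.75, -0.11 and 0.47 without passing. No measured neighbour was as bright as the member beside it.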

How the data were processed

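Total RNA (25 ng) was copied into cDNA, amplified and biotin-labelled, per the protocols in the labels. The authors deposited 1 intensity per probe set, made with RMA according to the submitters' processing notes. Its software and version are not given here because the sources name none. They were read as linear, ran from 6.06 to 14527, and were put on the log2 scale with no pseudocount, as the planned test takes log2 values.

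Of 22810 probe sets, 64 controls were left out. The platform annotation gave 13513 probe sets 1 gene, 503 several and 8730 none. Of those with 1 gene, 13436 matched the TAIR10.1 gene table, and they stood for 13286 different genes. Plastid genes were matched by symbol. 0 sample columns were left out.

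Differences were tested with limma 3.58.1 in R 4.3.3 (lmFit and eBayes, no trend, not robust, two-sided) on all probe sets. Spread was estimated from Col alone (2 arrays, residual df 1, prior df 12.1), which assumes that the mutant array varies as Col does. The number of arrays limits the precision. The script was tested on simulated data.

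The members and lists were chosen with earlier results of these data known. The rule named the 3 members, up to 30 measured genes in list order and the 3 nearest patterns of each member. rbcL came with the rule that set the members. Alternatives were a trended and a robust eBayes fit, quantile normalization, cyclic loess, median centring, log2(value + 16), a filter at the median of mean log2 values, and each Col array alone.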

Additional observations from a re-analysis of the deposited data

Results flagged for a closer look

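The control probe sets were left out of the tests, and they showed a difference in signal between transcript ends. Over 6 control pairs the median log2 excess of the 3′ over the 5′ probe set was 2.92 in the mutant, 2.37 on Col replicate 1 and 2.31 on Col replicate 2, with the mutant highest in 6 of 6 pairs. The excess was 5.15 in the second actin pair against 3.45 and 3.17. Its part in the values of LHCB4.1, PSAN and RCA was not tested.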

How the results depend on the processing

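LHCB4.1, PSAN and RCA kept a positive difference under all 9 alternatives and passed the limma threshold under none of the 7 that give a test. Adjusted p ran from 0.180 to 0.478 for LHCB4.1, from 0.203 to 0.396 for PSAN and from 0.230 to 0.568 for RCA. With each Col array left out in turn, as values with no test, the difference was 0.26 to 0.68 for LHCB4.1, 0.25 to 0.64 for PSAN and 0.29 to 0.48 for RCA. List medians were then 0.24 to 0.48 for nuclear photosynthesis genes, 0.80 to 1.46 for chlorophyll synthesis and -1.16 to -0.79 for plastid photosystem genes and rbcL.

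Counts of calls moved more. All probe sets gave 5982 calls (2700 higher, 3282 lower) as deposited and 2742 (1123 higher, 1619 lower) with log2(value + 16). There were 1749 higher after quantile normalization and 1976 lower with the filter, which tests fewer probe sets. Higher calls among nuclear photosynthesis genes went from 2 to 1 with cyclic loess and with log2(value + 16), and to 0 in limma after quantile normalization, where 2 passed at an unadjusted p under 0.05. Higher calls in chlorophyll synthesis went from 2 to 1 under the same 3 alternatives, and to 3 with an intensity trend and with the filter. Lower calls among plastid photosystem genes and rbcL went from 13 to 7 after median centring, 8 with log2(value + 16) and 9 after quantile normalization, and to 16 after cyclic loess and with the filter and 19 with an intensity trend. AT2G26500 changed sign, from -0.10 to 0.0438 after quantile normalization and 0.0075 after median centring. Causes were not tested. No paired analysis was possible with a single mutant array.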
